A study of Homo sapiens with 16 samples.

Results

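The ATF4 amino acid stress program was followed through 16 RNA-seq libraries from cells labelled SK-N-BE(2), an established line of human neuroblastoma in which MYCN is amplified. The column names of the deposited tables call the cells BE2c. It was taken as a list of 37 genes, found by symbol among the 63187 genes of the deposited tables. All 37 genes were found. Of these, 36 passed the filter on low counts that left 19530 genes for testing. NUPR1, the remaining gene, had 0 to 18 counts per library and was not tested.

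The libraries fall into 4 groups of 4. Cells labelled WT carried no construct that the labels name, and the other groups received, by transfection, HIF-2α in 1 of 3 forms. HIF-2α is an oxygen-regulated transcription factor, and EPAS1 is its gene. FL stands for full length, and NCTAD and cIDR are the forms written ΔN-CTAD and Δc-IDR in the design text, read here as lacking those regions. Cultures of all groups were grown at 21% oxygen in medium with 10% serum. A replicate number is, per the labels, also a batch number, and batches 1 to 4 each hold 1 library of each group. What the libraries of a batch shared is not given there, nor are the deleted residues, the vector, the time from transfection to harvest or a mock transfection of WT cells. In a comparison with WT, transfection as such and HIF-2α cannot be told apart. Nothing in the labels says that libraries of a group came from separate cultures, so p-values measure the spread between these libraries, which may be technical.

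ATF4 is a basic leucine zipper transcription factor. Its mRNA is translated more when the initiation factor eIF2α is phosphorylated, as happens when amino acids run short, when proteins misfold in the endoplasmic reticulum (ER) or when haem or mitochondrial function fails. ATF4 (ENSG00000128272.18, chr22:39519695-39522685 in GENCODE 29), usually with a C/EBP partner, then raises the genes for amino acid synthesis, amino acid uptake and the brakes on growth and on the response itself.

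A C/EBP-ATF response element, the DNA motif bound by such pairs, was looked for near the start sites because the members share their factor rather than a position in the genome. RefSeq promoters (GRCh38.p14, 250 bases before to 50 after each start) were at hand for 29 of the 37 members. The core TGATGNAA, on either strand, was present in 8 of these 29 genes (27.6%), against 2.66% of the 11847 tested genes with a promoter. The stretches below show it in capitals, 5′ to 3′ on the strand of the gene, for the 6 genes in which it lay before a start. In CHAC1 the motif lies on the opposite strand, so the capitals show its reverse complement. DDIT4 had no such core and is shown with ACGTG, the core of the hypoxia response element, in capitals.
CHAC1: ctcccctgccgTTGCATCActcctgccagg
ASNS: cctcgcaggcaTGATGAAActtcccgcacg
CEBPG: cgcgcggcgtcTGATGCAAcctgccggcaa
JDP2: atagccggggcTGATGCAAcccgtccc
ATF3: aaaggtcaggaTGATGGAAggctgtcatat
SLC1A5: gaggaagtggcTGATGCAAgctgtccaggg
DDIT4: gaacgttgcttACGTGcgcccggagtc

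The CHAC1 stretch is chr15:40953251-40953280 on the plus strand, with the motif beginning at position −209 from the start, inside an exon that GENCODE 29 gives to CHAC1. That of ASNS is chr7:97872458-97872487 on the minus strand (position −68), also inside an annotated ASNS exon. CEBPG (chr19:33374060-33374089, plus strand, −42) and JDP2 (chr14:75427995-75428021, plus strand, −16) have theirs inside the gene and outside its exons, before an internal start. The ATF3 stretch is chr1:212565205-212565234 on the plus strand (−191), outside every annotated gene. For SLC1A5 it is chr19:46784893-46784922 on the minus strand (−97), in an exon before an internal start. The DDIT4 stretch, chr10:72273788-72273814 on the plus strand (−125), lies outside every annotated gene. In SLC3A2 and SLC7A1 the core lay at or after the start. ACGTG was present in 5 of the 29 members (17.2%) and in 31.7% of the tested genes. The 5 were ATF4, DDIT4, MTHFD2, SLC1A5 and SLC7A5, of which DDIT4 alone is shown with it. A match describes the letters only and does not show that a factor was bound.

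Totals ranged from 38.6 to 56.1 M (mega) counts, with a median of 47.3. A count of 0 allows up to 3 counts, which is 0.0535 to 0.0778 CPM (counts per 1 M counts), counting error only. EPAS1, read as a check of the labels, was 13.0 to 28.1 CPM in the WT libraries and 1319.7 to 5852 CPM in the transfected ones. Markers of adrenergic neuroblastoma cells moved in both directions in batch 2, with DBH, HAND2 and TH higher, GATA3, TBX2, ISL1 and CHGA lower and MYCN not called. The 9 such markers reported here summed to 5190 to 5530 TPM (transcripts per 1 M transcripts) in batch 2 and 5460 to 6240 TPM elsewhere. Of 8 mesenchymal markers 6 were tested, with 2 higher and 2 lower, and the 8 summed to 119 to 135 TPM in batch 2 and 114 to 142 TPM elsewhere. Mitochondrially encoded transcripts made up 6.2% to 10.3% of the counts, apart from FL replicate 4 with 2.55%.

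The largest difference in these genes was between batches. In batch 2 the program was higher in all 4 groups, and 34 of the 36 tested members passed the test against batches 1, 3 and 4, each of them higher (edgeR with a group term). Of all tested genes 53.9% were called in that comparison, 27.7% higher and 26.1% lower. INHBE, an activin family growth factor subunit, was 20.8-fold higher, and CHAC1, an enzyme that degrades glutathione, 13.2-fold. No member was called lower, and all 36 lay above 0 with a median log2 fold change of 1.13, against 0.03 over all tested genes. Batch 2 is 1 batch with 4 libraries, so the test measures the spread of libraries within batches and not the spread between batches.

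**Figure D1:**
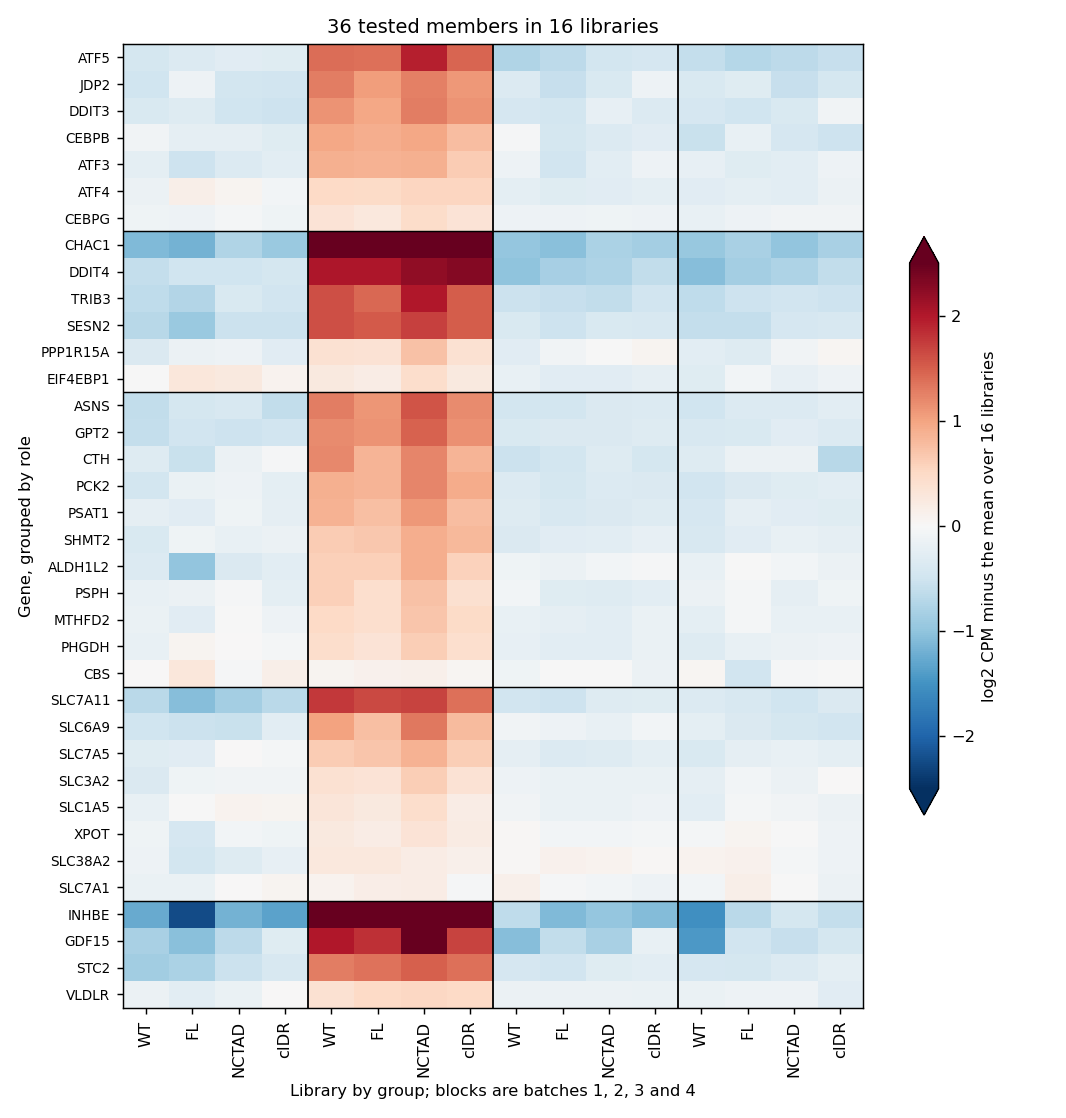
Each row is 1 tested member and each column 1 library. Colour gives log2 CPM minus the mean of that gene over the 16 libraries, values beyond the ends of the scale take the end colour, black lines separate batches and roles, and the second block from the left, batch 2, is red for nearly every gene in all 4 groups.

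The transcription factors are described first. All 7 tested factors were higher in batch 2, with a median log2 fold change of 1.20. ATF4 itself measured 694, 682, 717 and 712 CPM in the WT, FL, NCTAD and cIDR libraries of batch 2. In the other 12 libraries it ranged from 402 to 542 CPM with a median of 417. No library of batch 2 overlapped the others, although batch 1, with 442 to 542 CPM, lay between batch 2 and batches 3 and 4. The ATF4 difference was 0.68 ± 0.04 (log2 fold change ± SE) (edgeR adjusted p 1.45e-08), below the median of the list.

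DDIT3 encodes CHOP, a C/EBP-type factor of prolonged stress. It was 47.3, 42.3, 52.5 and 47.0 CPM in batch 2 in the same order of groups. The other 12 libraries held 15.1 to 20.3 CPM (median 16.3), with no overlap, a difference of 1.50 ± 0.07 (edgeR adjusted p 1.99e-10). ATF3, a repressor and activator induced by many stresses, was 33.0, 32.7, 33.0 and 27.8 CPM in batch 2 against 12.5 to 16.4 CPM (median 14.9) elsewhere. Its difference was 1.10 ± 0.06 (edgeR adjusted p 2.17e-09). ATF5, a relative of ATF4 whose mRNA is under similar translational control, showed the largest difference of the factors. ATF5 reached 103, 102, 150.1 and 107 CPM in batch 2 and 23.3 to 32.4 CPM (median 27.5) in the other libraries, which is 2.06 ± 0.06 on the log2 scale (edgeR adjusted p 6.11e-12). JDP2, a repressor of the AP-1 family, followed with 13.7, 11.6, 13.5 and 11.9 CPM against 3.76 to 5.15 CPM (median 4.20), a log2 difference of 1.56 ± 0.09. CEBPB (1.20 ± 0.07) and CEBPG (0.46 ± 0.03), dimer partners of ATF4, completed the group. CEBPG had the smallest difference of the factors, yet its 4 batch 2 libraries, 102 to 117 CPM, all lay above the others at 75.5 to 82.5 CPM. NUPR1, a stress-induced chromatin protein, gave 5, 14, 18 and 9 counts in batch 2 and 0 to 9 counts elsewhere, too few for a test.

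Feedback genes and growth brakes had a median of 2.16 on the log2 scale, and 6 of 6 were higher. CHAC1 stood at 138, 137, 145 and 135 CPM in batch 2, or 139 ± 4.27 (mean ± SD, n = 4). The other 12 libraries ranged from 8.83 to 11.9 CPM (median 10.4), or 10.5 ± 0.954 (SD, n = 12). Its spread within each set was small beside the distance between them, and the log2 difference was 3.72 ± 0.05 (edgeR adjusted p 5.81e-16). DDIT4, also called REDD1, inhibits the growth kinase complex mTORC1 and is known as a target of HIF as well as of ATF4. It was 479, 474, 543 and 576 CPM in batch 2. Batch 1 held 77.9, 83.2, 83.5 and 86.6 CPM, batch 3 held 58.3, 66.1, 68.6 and 76.4, and batch 4 held 56.4, 64.8, 68.9 and 77.1. No library outside batch 2 came near its values, and the log2 difference was 2.85 ± 0.04 (edgeR adjusted p 5.81e-16).

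TRIB3, a pseudokinase that restrains ATF4 and CHOP, was 91.6, 80.8, 120.0 and 85.6 CPM in batch 2 against 18.0 to 22.9 CPM (median 20.8) elsewhere. SESN2, a leucine sensor upstream of mTORC1, was 91.0, 86.1, 96.6 and 84.5 CPM against 15.6 to 22.9 CPM (median 20.5). Both were more than 4-fold higher without overlap, with log2 differences of 2.20 ± 0.06 and 2.13 ± 0.05 (edgeR adjusted p 4.30e-12 and 2.39e-13). PPP1R15A, or GADD34, directs a phosphatase to eIF2α and so ends the response. It was 27.0, 26.6, 34.7 and 27.1 CPM in batch 2 against 16.1 to 21.8 CPM (median 18.8), a difference of 0.62 ± 0.06. EIF4EBP1, which holds back cap-dependent translation, had the smallest difference of this group at 0.37 ± 0.06 (edgeR adjusted p 4.57e-05). Its libraries overlapped, since FL and NCTAD of batch 1, at 215 and 210.4 CPM, exceeded WT, FL and cIDR of batch 2 at 209, 203 and 209.5 CPM.

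**Figure D2:**
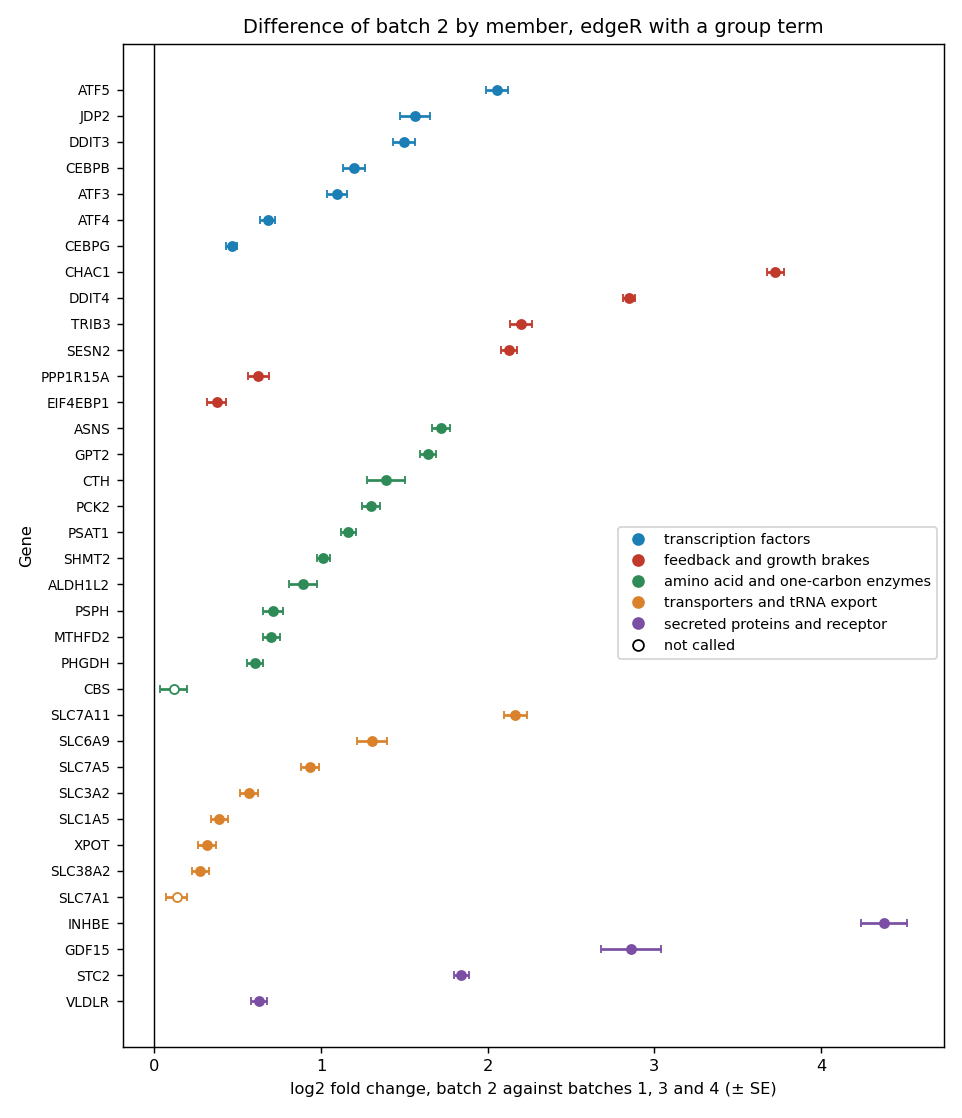
Points are log2 fold changes of batch 2 against batches 1, 3 and 4 for the 36 tested members, with bars of 1 SE, coloured by role. Open circles mark CBS and SLC7A1, which were not called, and INHBE and CHAC1 lie farthest to the right.

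Among the enzymes 10 of 11 were higher in batch 2, with a median of 1.01. ASNS, asparagine synthetase, is the classical target of the amino acid response. Its batch 2 libraries held 249, 222, 306 and 235 CPM and the other 12 held 67.2 to 85.2 CPM (median 76.5), a log2 difference of 1.72 ± 0.06 (edgeR adjusted p 8.15e-12). The serine synthesis enzymes PHGDH, PSAT1 and PSPH catalyse consecutive steps. PHGDH was 385, 363, 435 and 382 CPM in batch 2 against 227 to 301 CPM (median 254), PSAT1 was 443, 409.9, 513 and 414 CPM against 182 to 225 CPM (median 197), and PSPH was 55.9 to 70.2 CPM against 33.8 to 41.5 CPM. All 3 separated without overlap, and PSAT1 (1.16 ± 0.05) had a larger value than PHGDH (0.61 ± 0.05) and PSPH (0.71 ± 0.06). The difference between these values was not tested.

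Mitochondrial enzymes of the folate cycle were higher as well. SHMT2, which makes glycine from serine, was 403, 411, 485 and 452 CPM in batch 2 and 194 to 239 CPM (median 218) elsewhere (1.01 ± 0.04). MTHFD2 (0.70 ± 0.05) and ALDH1L2 (0.89 ± 0.08) were also called. GPT2, the mitochondrial alanine transaminase, was 169, 161, 206 and 163 CPM in batch 2 against 49.2 to 60.8 CPM (median 56.8). Its difference of 1.64 ± 0.05 was close to that of ASNS (edgeR adjusted p 3.21e-12). PCK2, the mitochondrial form of phosphoenolpyruvate carboxykinase, differed by 1.30 ± 0.05. Transsulfuration makes cysteine from homocysteine, and its enzymes CBS and CTH did not show the same values. CTH was low in every library and higher in batch 2, at 4.35 to 5.61 CPM against 1.47 to 2.35 CPM (1.39 ± 0.11). CBS was not called, at 0.12 ± 0.08 (edgeR adjusted p 0.24), and its 236 to 249.6 CPM in batch 2 lay inside the 163 to 277 CPM of the other libraries.

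Transporters and the tRNA export receptor gave the smallest median, 0.48, with 7 of 8 higher. SLC7A11, the cystine importer of the xCT system, was the exception in size. It was 94.0, 86.4, 89.3 and 71.5 CPM in batch 2 against 13.2 to 22.4 CPM (median 19.7), a log2 difference of 2.17 ± 0.07 (edgeR adjusted p 5.49e-12). SLC6A9, a glycine transporter, was 11.6, 9.69, 14.4 and 10.0 CPM against 3.90 to 5.50 CPM (median 4.65) (1.31 ± 0.09). SLC7A5 and SLC3A2 form the large neutral amino acid carrier, and they differed by 0.94 ± 0.05 and 0.57 ± 0.05. Glutamine and neutral amino acid carriers SLC1A5 (0.39 ± 0.05) and SLC38A2 (0.28 ± 0.05), and XPOT (0.32 ± 0.05), which exports tRNA from the nucleus, were called with differences below 0.4. SLC7A1, the carrier of arginine and lysine, was not called at 0.13 ± 0.06 (edgeR adjusted p 0.0816). Its batch 2 libraries, 199.9 to 231 CPM, overlapped the 182 to 225 CPM of the others.

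Secreted proteins and the lipoprotein receptor VLDLR were all 4 higher, with a median of 2.35. INHBE was 20.3, 17.8, 28.2 and 17.8 CPM in batch 2 and 0.413 to 1.55 CPM (median 0.971) in the other 12 libraries, a log2 difference of 4.38 ± 0.14 (edgeR adjusted p 6.99e-12). GDF15, a stress hormone that lowers appetite, was 10.6, 9.34, 19.4 and 8.47 CPM in batch 2 against 0.944 to 2.30 CPM (median 1.66). Its NCTAD library was highest in that batch, and the difference was 2.86 ± 0.18 (edgeR adjusted p 8.83e-09). STC2, a secreted glycoprotein, was 220.2, 234, 256 and 236 CPM against 49.8 to 76.4 CPM (median 67.7), with a narrower spread (1.84 ± 0.04, edgeR adjusted p 6.35e-13). VLDLR showed 48.5, 52.4, 52.98 and 52.1 CPM against 30.5 to 37.2 CPM (median 33.4) (0.63 ± 0.05, edgeR adjusted p 4.83e-08).

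**Figure D3:**
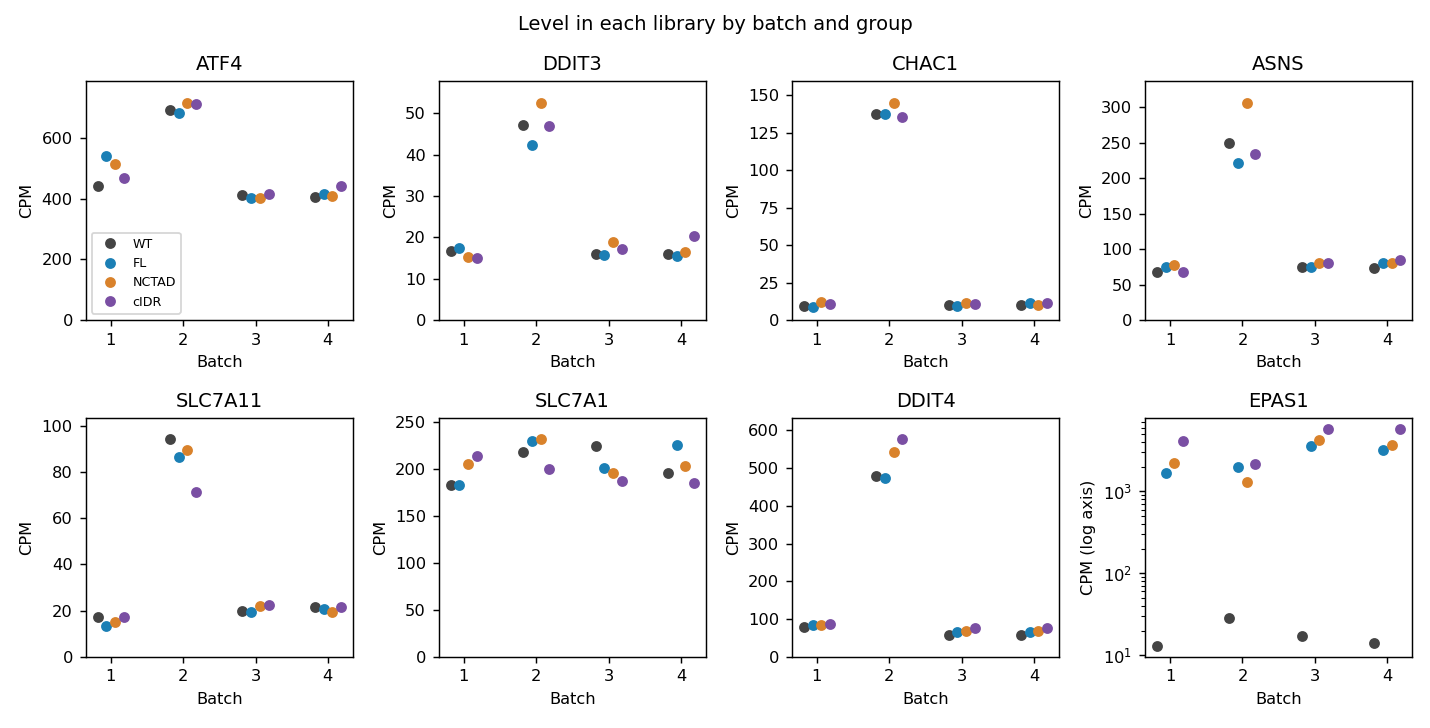
CPM of 7 members and of EPAS1 in each of the 16 libraries, by batch, with colours for the 4 groups; the axis of EPAS1 is logarithmic and the others start at 0. The batch 2 points of ATF4, DDIT3, CHAC1, ASNS, SLC7A11 and DDIT4 lie above all others, those of SLC7A1 overlap, and EPAS1 is low in WT libraries in every batch.

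Set against all genes, the members lay towards the upper end of the batch 2 difference. All 4 batch 2 libraries lay above the other 12 for 33 of the 36 members (91.7%) and for 14.4% of all tested genes, while 27.7% were called higher. The overlapping members were SLC7A1, CBS and EIF4EBP1. A difference over 2-fold was reached by 20 members (55.6%) and by 7.8% of all genes, and one over 4-fold by 8 members (22.2%) and by 1.47%. INHBE, CHAC1, GDF15 and DDIT4 were among the 100 genes with the largest log2 fold changes. Batch took a median of 95.1% of the variance of log2 CPM over the members and 53.8% over all genes, and group took 1.39% and 7.85%.

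Pairs of batches gave the same picture for batch 2. Against batch 1, 33 of 36 members were called higher (22.3% of all genes), against batch 3, 33 (23.8%), and against batch 4, 34 (22.8%). SLC7A1 and CBS were not called in any of the 3 pairs, EIF4EBP1 not against batch 1 and SLC38A2 not against batch 3. Batches 3 and 4 did not differ in any gene by edgeR (0% of all genes called, 424 genes and 0 members at an unadjusted p under 0.05). Batch 1 differed from batch 3 in 8 members (14.1% of all genes called), 3 higher (8.26%) and 5 lower (5.83%), and from batch 4 in 8 members (10.1%), 4 higher (5.98%) and 4 lower (4.17%). In both pairs ATF4, DDIT4 and EIF4EBP1 were higher in batch 1, and SLC7A11, STC2, SLC38A2 and ALDH1L2 were lower. The DDIT4 difference of batch 1 was 0.31 ± 0.05 against batch 3 and 0.32 ± 0.05 against batch 4 (edgeR adjusted p 0.00244 and 0.00225), and that of SLC7A11 was −0.42 ± 0.09 and −0.41 ± 0.09.

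The batch 2 difference was present in every group. Between the batch 2 library and the mean of the other 3 libraries of its group, the median member differed on the log2 CPM scale by 1.13 (WT), 1.08 (FL), 1.23 (NCTAD) and 1.03 (cIDR). In each group 36 of 36 members were above 0, against 52.3% to 52.9% of all tested genes, whose medians were 0.02 to 0.03. The NCTAD library had the largest such difference for 25 members, FL for 7, WT for 4 and cIDR for 0, and the shares of all tested genes were 19.4%, 31.2%, 26.4% and 23%. Within batch 2 the NCTAD library held the highest level of 31 of the 36 members (86.1%), against 22.9% of all tested genes. It was highest for 14, 5 and 8 members in batches 1, 3 and 4, against 27.2%, 24.7% and 22.4% of all genes. The cIDR library was highest for 17 members in batch 3 (24.1% of all genes) and for 14 in batch 4 (21.3%). With 1 NCTAD library per batch, that library and the construct cannot be told apart within batch 2.

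Levels could be compared between genes as TPM, which is scaled by transcript length. Outside batch 2, ATF4 had the highest median of the members, 471 TPM, followed by EIF4EBP1 at 332 and PHGDH at 222. CBS and SHMT2, both at 171 TPM, could not be ordered, since their ranges of 124 to 192 and 151 to 186 overlapped. The lowest tested members were GDF15 (2.08 TPM), CTH (1.39) and INHBE (0.605). In batch 2, ATF4 still led with 796 TPM. DDIT4 at 464 and EIF4EBP1 at 447 now followed, and no order is given between them. CHAC1 moved from 10.8 to 146 TPM, a level above that of SLC7A11 (13.1), ATF3 (26.7) and TRIB3 (59.0) in the same batch.

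Several measures outside the list also moved with batch 2. EPAS1 was 2203, 1319.7, 4228 and 3655 CPM in the NCTAD libraries of batches 1 to 4 and 4078, 2189, 5852 and 5816 CPM in those of cIDR, each lowest in batch 2. In FL it was 1691, 2001, 3580.4 and 3164 CPM, and in WT 13.0, 28.1, 17.3 and 14.3 CPM, highest in batch 2. The 6 fibroblast markers summed to 107 to 111 TPM in batch 2 and 45.6 to 60.5 TPM elsewhere, and 4 of the 5 tested were called higher, while COL3A1 stayed below 0.2 TPM in all libraries. The 4 endothelial markers summed to 0.286 to 0.606 TPM against 0.0244 to 0.275 TPM, with both tested genes, VWF and CDH5, called higher and PECAM1 listed at 0 in libraries of each set. Leukocyte markers (6 genes) summed to 1.37 to 1.94 TPM against 0.911 to 1.58 TPM, with a median of 0 for PTPRC, and the 1 tested, CD14, was called higher. Epithelial markers (6 genes) summed to 11.2 to 11.6 against 8.99 to 14.5 TPM, and of the 4 tested, KRT8 and KRT18 were called higher and KRT19 and EPCAM were not called. Mitochondrial shares in batch 2 were 6.76% to 7.38%, inside the range of the other batches. Fewer cells of a type and less RNA per cell cannot be told apart in bulk samples. The part of these measures in the higher levels of batch 2 was not tested.

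Other genes of the stress pathways did not all move with the members, and the counts of each list stand beside 27.7% of all genes called higher and 26.1% lower. Upstream of ATF4, the eIF2α kinases and their regulators (15 genes) gave 3 higher and 9 lower in batch 2, with a median of −0.26. The 4 kinases did not move together. EIF2AK4, the kinase that senses uncharged tRNA, was higher by 0.36 ± 0.06, EIF2AK3, that of the ER, was lower (−0.47 ± 0.06), and EIF2AK1 (−0.04 ± 0.05) and EIF2AK2 (−0.11 ± 0.06) were not called. EIF2B4 (−0.53 ± 0.05), EIF2B5 (−0.43 ± 0.04) and EIF2B1 (−0.37 ± 0.04), subunits of the exchange factor that eIF2α phosphorylation inhibits, fell. Cytosolic aminoacyl-tRNA synthetases, which charge tRNA and include known ATF4 targets, were higher for 13 and lower for 6 of 20, with a median of 0.20. CARS1 (1.10 ± 0.04), AARS1 (0.82 ± 0.05) and GARS1 (0.65 ± 0.04) were examples. The ER chaperones and degradation genes driven by ATF6 and XBP1 were lower for 14 of 17 and higher for 3, with a median of −0.50. HSPA5, the main ER chaperone, fell (−0.90 ± 0.04, edgeR adjusted p 3.59e-10), as did CRELD2 (−0.93 ± 0.05), whereas EDEM1 was higher by 0.95 ± 0.06.

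**Figure D4:**
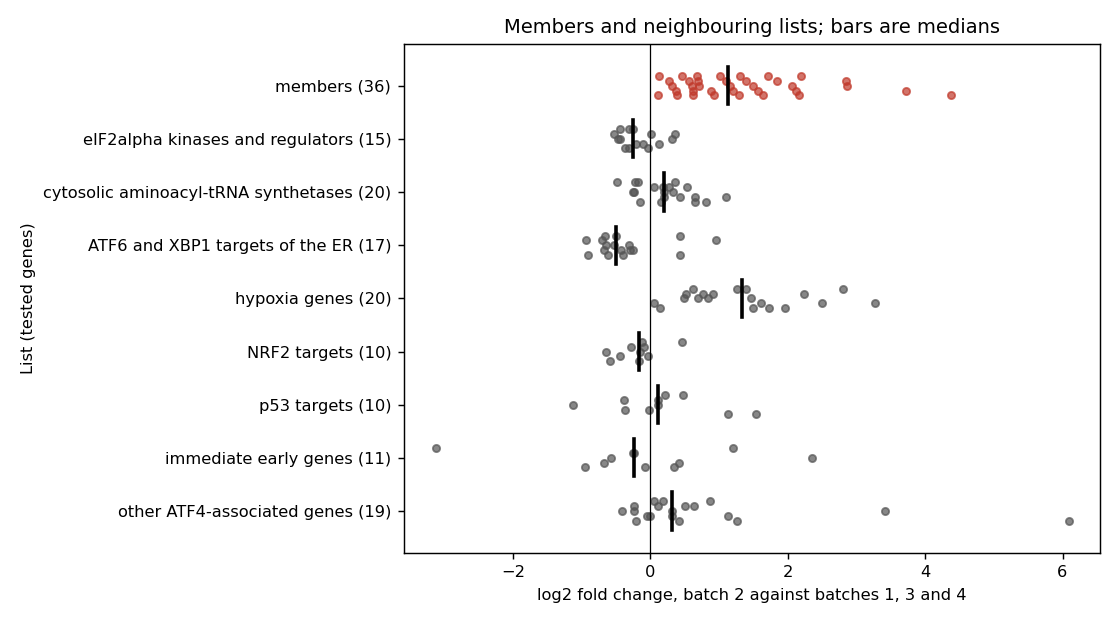
Each point is 1 tested gene of the list named at the left, with its log2 fold change in batch 2 against batches 1, 3 and 4, and the bar is the list's median. The 36 members and the hypoxia genes lie to the right of 0, and the ATF6 and XBP1 list lies mostly to the left.

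Of 20 hypoxia genes 19 were higher in batch 2, with a median of 1.33. PFKFB4 (2.24 ± 0.05), PDK1 (2.81 ± 0.08) and BNIP3 (1.73 ± 0.06), which adjust glycolysis, pyruvate use and mitophagy, were among them, and SLC2A1 was not called (0.05 ± 0.10). Targets of NRF2, the factor of oxidative stress, gave 1 higher and 5 lower of 10 (median −0.16), with NQO1 at −0.59 ± 0.06, GCLM at −0.64 ± 0.08 and SLC48A1, the gene called higher, at 0.46 ± 0.06. The p53 targets gave 3 higher and 3 lower of 10 (median 0.11), with CDKN1A at 1.54 ± 0.07, TP53I3 at −1.13 ± 0.05 and BBC3 at 1.14 ± 0.08. The p53 counts are close to the shares over all genes. Immediate early genes gave 4 higher and 6 lower of 11 (median −0.24), with IER3 at 2.35 ± 0.09, EGR1 at 1.20 ± 0.09 and JUN at −0.57 ± 0.05.

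A further list of 20 genes associated with ATF4, of which 19 were tested and WARS1 also belongs to the synthetases, held 10 higher and 4 lower (median 0.31). ADM2, a peptide hormone gene, was 27.7, 30.1, 37.8 and 25.6 CPM in batch 2 against 1.60 to 4.69 CPM (3.42 ± 0.12). FGF21, a hormone of fasting and mitochondrial stress, gave 112, 67, 91 and 83 counts in batch 2 and 0 to 3 counts in each other library. TXNIP, a regulator of glucose uptake, was higher by 1.13 ± 0.07.

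The design sets each form of HIF-2α against WT and the forms against each other. Without the batch in the model, 0 of 36 members were called in each of the 6 group comparisons, and 0 had an unadjusted p under 0.05 by edgeR. The share of all tested genes under that unadjusted p was 0.609% to 1.42%, so 0 of 36 members is near the share of all genes. DESeq2 with group only and limma on TPM also called 0 members. Over all tested genes 0.0102% were called in FL against WT, 0.0256% in NCTAD against WT and 0.0102% in cIDR against WT, and 0% in each comparison between forms. Median log2 fold changes of the members were −0.01, 0.12 and 0.02 in FL, NCTAD and cIDR against WT, and 0.01, 0.02 and 0.01 over all genes. For ATF4 the differences from WT were 0.06 ± 0.24 in each form, so its group means differed by far less than the spread between batches. Leaving out replicate 2 of all groups gave 0 members called as well, without and with the batch in the model.

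With the batch number as a replicate block, 0 of 36 members were called in FL against WT (0.102% of all genes, 0.0717% higher), 0 in NCTAD against WT (0.456%, 0.42% higher) and 1, higher, in cIDR against WT (0.486%, 0.456% higher). Between forms 0 were called in NCTAD against FL (0%), cIDR against FL (0.0307%) and cIDR against NCTAD (0.00512%). Members with an unadjusted p under 0.05 numbered 3, 10, 4, 6, 3 and 1 of 36 in these comparisons in the same order, and the share of all tested genes was 5.11%, 5.96%, 5.45%, 3.69%, 3.68% and 2.15%.

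The called gene was DDIT4 (ENSG00000168209.6, chr10:72273920-72276036). In each batch but the second its level followed the order WT, FL, NCTAD and cIDR, with the values given above, and in batch 2 FL (474 CPM) was just below WT (479 CPM). EPAS1 followed the same order in those other batches, while in batch 2 its NCTAD level was below that of FL. The form of HIF-2α and the amount of its transcript thus cannot be told apart, for DDIT4 or in the comparisons between forms. Log2 CPM of DDIT4 in cIDR was above that of the WT library of the same batch in 4 of 4 batches. With the block DDIT4 rose by 0.31 ± 0.05 in cIDR against WT (edgeR adjusted p 0.0105). NCTAD differed by 0.20 ± 0.05 (edgeR adjusted p 0.206) and FL by 0.11 ± 0.05 (edgeR adjusted p 0.92), and neither passed in edgeR, although DESeq2 with the block called DDIT4 in NCTAD (adjusted p 0.0479). The FL value was 0.0665 without WT replicate 3 and 0.0735 without FL replicate 1. Without the block the cIDR difference was 0.28 ± 0.97 (edgeR adjusted p 1), and it ranged from −1.07 to 1.67 when the batch 2 library of either group was left out, and was just below 0 without WT replicate 3 (−0.0086) or 4 (−0.009). The blocked call was lost without WT replicate 3 (edgeR adjusted p 0.0555) or 4 (0.0748), without cIDR replicate 2 (0.0658), 3 (0.0772) or 4 (0.0753), and without batch 2 (0.156). Between forms, DDIT4 in cIDR differed from FL by 0.20 ± 0.05 and from NCTAD by 0.11 ± 0.05 with the block (edgeR adjusted p 0.65 and 1).

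**Figure D5:**
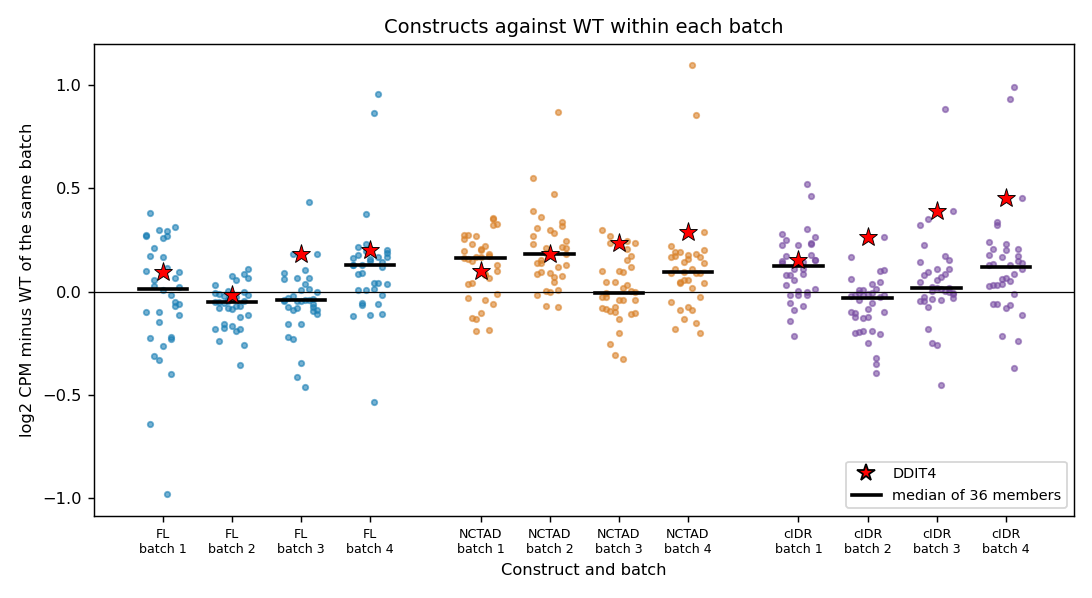
Each point is 1 member, with its log2 CPM in a transfected library minus that of the WT library of the same batch, for the 3 forms and 4 batches. Black bars are medians, between −0.05 and 0.18, and the red star is DDIT4, which is above 0 in all 4 batches for NCTAD and cIDR.

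The other members with the smallest p in these comparisons did not pass in edgeR. SHMT2 was above WT in 4 of 4 batches for each form, with blocked differences of 0.12 ± 0.05, 0.20 ± 0.05 and 0.18 ± 0.05 in FL, NCTAD and cIDR (edgeR adjusted p 0.92, 0.177 and 0.279). The FL value was 0.0643 without FL replicate 1, and DESeq2 with the block called SHMT2 in NCTAD (adjusted p 0.0137). Its WT libraries held 198, 403, 202 and 194 CPM in batches 1 to 4 and its NCTAD libraries 227, 485, 216 and 227 CPM. ATF3 was below WT in 4 of 4 batches in FL, by −0.18 ± 0.08 (edgeR adjusted p 0.92). PPP1R15A was above WT in 4 of 4 batches in NCTAD, by 0.27 ± 0.08 (edgeR adjusted p 0.387), with 18.9, 34.7, 20.6 and 19.6 CPM against 16.1, 27.0, 17.1 and 17.1 CPM in WT.

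Counted by direction, 10 members were above the WT library in 4 of 4 batches in NCTAD (8.86% of all tested genes) and 1 was below (6.48%). The 10 were ASNS, CEBPG, CTH, DDIT4, GDF15, GPT2, PCK2, PPP1R15A, SHMT2 and STC2. In cIDR 6 members were above in 4 of 4 batches (10.6% of all genes) and XPOT below (7.15%), and in FL only SHMT2 was above (5.35%) and ATF3, SLC6A9 and SLC7A11 below (3.95%). These comparisons share the WT libraries. The median member differed from WT by 0.01, −0.05, −0.04 and 0.13 in FL in batches 1 to 4, by 0.16, 0.18, −0.01 and 0.09 in NCTAD, and by 0.12, −0.03, 0.02 and 0.12 in cIDR. Each of the forms thus had a batch in which the median was below 0. Over all tested genes the medians were −0.0165 to 0.0544 in FL, −0.0156 to 0.0475 in NCTAD and −0.00272 to 0.0406 in cIDR. The member median was above that of all genes in every batch in NCTAD, in batch 4 alone in FL, and in all but batch 2 in cIDR. In batch 3 of NCTAD the 2 values were −0.00668 and −0.0156.

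Between NCTAD and FL, SESN2, TRIB3 and STC2 had the smallest p, with blocked differences of 0.21 ± 0.06, 0.25 ± 0.09 and 0.17 ± 0.06 (edgeR adjusted p 0.996 for each). For cIDR against FL, STC2 (0.20 ± 0.06) and SESN2 (0.17 ± 0.06) followed DDIT4 (edgeR adjusted p 1). For cIDR against NCTAD, ASNS (−0.13 ± 0.07) and PSAT1 (−0.11 ± 0.06) had negative values without passing (edgeR adjusted p 1), and without batch 2 these were −0.0313 and −0.032. Without batch 2 the blocked NCTAD-FL value of TRIB3 was 0.129 and the cIDR-FL value of SESN2 was 0.256. With the block, edgeR called 1, 7 and 12 of the 20 hypoxia genes higher in FL, NCTAD and cIDR against WT, beside 0.0717%, 0.42% and 0.456% of all genes. Without the block it called 0 of the 20 in each, with 3, 3 and 7 at an unadjusted p under 0.05.

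Reads of some members can be shared with near-identical copies or with antisense genes, so their counts are uncertain to that extent. The most abundant copy was ATF4P3, a processed copy of ATF4, with 27.3 CPM in batch 2 and 14.5 CPM elsewhere. XPOTP1 (7.19 and 4.17 CPM), ATF4P4 (5.20 and 2.81) and PSAT1P3 (4.93 and 1.75) were also higher in batch 2 than elsewhere, each at a small fraction of its parent's level. VLDLR-AS1, an antisense gene and not a copy, was higher in batch 2 as well (4.27 and 1.89 CPM), at a small fraction of the VLDLR level.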

How the data were processed

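The deposited estimated counts per gene were made with Salmon, per the name of the table, and are scaled neither to depth nor to length. The deposited TPM values came from the same step. Reads of poly(A)-selected, strand-marked libraries (250 ng of RNA, 13 PCR cycles) were processed with fastp, STAR, Salmon and featureCounts on GRCh38, per the submitters' processing notes; versions and the annotation release are not given in the sources used here. Column names of the tables differ from the labels, calling the cells BE2c, FL wild type and WT control. Groups follow the labels, matched through the library name in each description, and EPAS1 was low in the libraries labelled WT alone.

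Estimated counts, 15.5% of them not whole, were rounded. Of 63187 genes, 19530 passed filterByExpr by group. The main group test was edgeR 4.0.16 (R 4.3.3), quasi-likelihood, with TMM scaling, all 16 libraries and group as the only term, with Benjamini-Hochberg adjustment over all tested genes and calls at an adjusted p under 0.05. Batches were compared with group and batch in the model, batch 2 against the mean of batches 1, 3 and 4. SE is the log2 fold change over the square root of F. CPM use TMM-scaled totals, and log2 CPM a prior count of 2. Reads of endogenous EPAS1 and of constructs are counted together.

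The labels' batch tag pairs same-numbered libraries. Deviations from group means correlated at a mean r of 0.308 over 24 pairs of the same number (0.0674 to 0.712) and −0.0945 over 72 pairs that differed in number and group. The fit with batch as a replicate block was run beside it. The spread (biological coefficient of variation) was 0.245 without and 0.108 with the block.

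The members, the 8 other lists and the marker lists were chosen with earlier results of these data known. All members may be named. Values by library were set out for 11 members and EPAS1, and per comparison for called members (up to 12 by size) or, with none called, the 3 with the smallest p. From each other list the 3 genes with the smallest p were named. SLC6A9, SLC2A1, CBS, SLC7A1, the eIF2α kinases and the adrenergic markers were added after their values were seen. So were the order of groups in DDIT4, that in EPAS1 and the TPM order. A further adrenergic marker is not reported here, so no balance of directions is given for that list. Alternatives were DESeq2 1.42.0, limma 3.58.1 on log2(TPM + 1) and log2(TPM + 0.1), size factors by the median of ratios, no filter, a minimum of 10 counts per library, a fit to just the 8 libraries compared, and each library or batch left out. DESeq2 with the block and the blocked fit with each library left out were chosen after seeing the data. The scripts were tested on simulated data. Motifs were searched in RefSeq promoters, and positions of genes are those of GENCODE 29.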

Additional observations from a re-analysis of the deposited data

Results flagged for a closer look

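Samples far from the others of their set were looked for with Dixon's test, first among the 4 libraries of each group and then among the 4 of each batch. Chance gives about 1 in 20 sets. Of 144 sets of a member and a group, 71 (49.3%) had a library set apart, in 29 genes, and it was the batch 2 library at the upper end in each. Over all tested genes 8.31% of such sets had a library set apart, and in 2.63% it was the batch 2 library at the upper end. ATF3, CHAC1, TRIB3, SESN2, DDIT4, CEBPG and GPT2 had it in 4 groups. ATF5, ASNS, PSAT1, SHMT2, STC2 and PCK2 had it in 3 groups, and DDIT3, INHBE, MTHFD2, VLDLR, SLC7A5, GDF15, CTH, PPP1R15A and JDP2 in 2. In ATF4, PSPH, SLC7A11, SLC3A2, CEBPB, CBS and XPOT it was found in 1 group.

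Of 144 sets of a member and a batch, 13 (9.03%) had a library set apart, in 12 genes, against 5.89% over all tested genes. In batch 2 the NCTAD library was highest for ATF5 (150 CPM), ALDH1L2 (89.3 CPM) and PPP1R15A (34.7 CPM), and the cIDR library was lowest for ATF3 (27.8 CPM). In batch 1 the FL library was lowest for INHBE (0.413 CPM), ALDH1L2 (24.2 CPM) and XPOT (286 CPM) and highest for JDP2 (5.15 CPM), and the WT library was lowest for SLC3A2 (121 CPM). In batch 3 the FL library was lowest for SESN2 (20.6 CPM) and PCK2 (58.7 CPM). In batch 4 the WT library was lowest for GDF15 (0.944 CPM), and the FL library, which had the low mitochondrial share of 2.55%, was lowest for CBS (163 CPM).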

How the results depend on the processing

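In batch 2 against batches 1, 3 and 4, 34 or 35 members were called higher under every alternative and with each library or batch left out. The group comparisons called 0 members under every alternative in the methods that was not added later, apart from 1 in cIDR against WT (DDIT4) with the replicate block. In edgeR the block changed no other member's call. With DESeq2 and the replicate block, chosen after seeing the data, 2 members were called in NCTAD against WT (DDIT4, 0.19, adjusted p 0.0479, and SHMT2, 0.19, adjusted p 0.0137) and 1 in cIDR against WT (DDIT4, 0.30, adjusted p 7.19e-06). With each library left out in turn, the blocked fit called 0 to 1 in cIDR against WT. Over all genes, edgeR called 2, 5, 2, 0, 0 and 0 (the 3 forms against WT in the order FL, NCTAD, cIDR, then NCTAD-FL, cIDR-FL and cIDR-NCTAD) without and 20, 89, 95, 0, 6 and 1 with the block, and DESeq2 called 11, 17, 8, 2, 0 and 3 without and 58, 168, 156, 12, 46 and 21 with it. Without the block, leaving out 1 library turned a sign 41 times, 15 of them with a batch 2 library left out and 26 with a library of another batch (for DDIT4, SESN2, STC2 and SHMT2). Against WT the log2 differences ranged in FL from −0.173 to 0.438 (SHMT2), −0.592 to 0.212 (ATF3) and −1.23 to 1.42 (DDIT4), in NCTAD from −0.159 to 0.542 (SHMT2) and −1.19 to 1.57 (DDIT4), and in cIDR from −1.07 to 1.67 (DDIT4). In NCTAD against FL they ranged from −0.709 to 1.11 (SESN2), −0.712 to 1.22 (TRIB3) and −0.593 to 0.913 (STC2), and in cIDR against FL from −1.1 to 1.51 (DDIT4), −0.506 to 0.892 (STC2) and −0.696 to 1.01 (SESN2). In cIDR against NCTAD they ranged from −1.25 to 1.47 (DDIT4), −0.502 to 0.303 (PSAT1) and −0.805 to 0.554 (ASNS). NUPR1, at 0 to 18 counts, was not tested, and 4 libraries per group with 1 per batch limit how small a group difference could be called.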
